A study of Mus musculus with 6 samples.

Results

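The genes described here build ribosomes. They are 34 named genes of ribosome biogenesis and the nucleolus, matched by exact symbol, and all 34 were found among the 23283 gene symbols of the series. Ribosome synthesis starts in the nucleolus, where RNA polymerase I transcribes the ribosomal DNA into a long precursor RNA. Small nucleolar ribonucleoproteins (snoRNPs, complexes of a guide RNA with core proteins) modify this precursor, and separate sets of assembly factors fold and cut it into the small and the large subunit. In growing cells these genes are widely raised by growth signals, in part through the transcription factor MYC, whereas eosinophils are mature granulocytes that no longer divide.

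The series measured polyadenylated RNA in eosinophils taken from the lamina propria of the mouse small intestine and kept in culture. All mice were wild type, of the strain BALB/c. In 3 libraries the cells had been given GM-CSF at 10 ng/ml for 4 hours, and in the other 3 they were cultured for 4 hours without it. GM-CSF is a growth factor of the bone marrow lineages that signals through the kinase JAK2 and the transcription factor STAT5. The labels used here state no age or sex, and they do not say if the libraries of a group stem from different mice, so p-values measure the spread between these samples, which may be technical. The deposited unit is FPKM (fragments per kilobase of transcript, scaled to the mapped fragments of the library), which corrects for transcript length and depth.

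Depth, as mapped sequence, ran from 0.8198 to 1.32 gigabases in the GM-CSF group and from 0.917 to 0.974 gigabases in the untreated group. Cish, a STAT5 feedback gene, had 152.9, 159.4 and 157.8 FPKM with GM-CSF against 17.8, 20.5 and 15.4 FPKM untreated (log2 fold change 3.07, limma adjusted p = 7.78e-06). Of the 7 eosinophil markers tested, Siglec5 (listed under this symbol for Siglec-F) ranged over 163.5 to 180.5 FPKM with GM-CSF and 158.7 to 180.8 FPKM untreated. Ccr3 ranged over 230.4 to 275.5 FPKM with GM-CSF and 267.2 to 315.5 FPKM untreated. The limma adjusted p was 0.978 for Siglec5, 0.151 for Ccr3 and 0.916 for Prg2. Il5ra (log2 fold change -1.10, limma adjusted p = 0.000891), Epx (-0.54, 0.0372) and Alox15 (-1.54, 5.08e-05) were lower with GM-CSF, and Gata1 (0.35, 0.00471) was higher. Differences were tested with limma on log2(FPKM + 1) in the 10106 genes that averaged 1 FPKM or more, and a gene is called at a Benjamini-Hochberg adjusted p under 0.05. Of these genes 21.9% were called, 7.68% higher and 14.2% lower with GM-CSF. The split between higher and lower calls moved with the scaling: it was 1078 higher and 968 lower with median-of-ratios scaling, 950 and 1111 with quantile normalization and 791 and 913 after rescaling to one sum, against 776 higher and 1436 lower as deposited.

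Most ribosome biogenesis genes differed little between the groups. Of the 33 members abundant enough to be tested, 0 rose, 2 fell and 31 were not called by limma. The members that fell were Polr1a, the largest subunit of RNA polymerase I, and Pes1, an assembly factor of the large subunit. They are 6.06% of the tested members, against 21.9% of all tested genes called in either direction and 14.2% called lower. Without adjustment 7 members had p under 0.05, which is 21.2% of them against 34.4% of all genes tested. Of the 7, Mybbp1a and Nop14 had higher means with GM-CSF and the other 5 (Polr1a, Pes1, Ncl, Nop56 and Nhp2) had lower ones.

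Promoters are shown for Polr1a and Pes1 because these members fell, and for Polr1b because it encodes the subunit that forms the active centre together with Polr1a and was not called. Each is the RefSeq window of 300 bases on GRCm38.p6, from 250 bases before the start of a RefSeq transcript to 50 after it, on the + strand. Capitals mark CACGTG, the E-box that MYC and its partners bind, and TTCNNNGAA, the core of STAT sites. Both patterns read the same on either strand, and they do not overlap in these windows.
Polr1a, chr6:71908803-71909102: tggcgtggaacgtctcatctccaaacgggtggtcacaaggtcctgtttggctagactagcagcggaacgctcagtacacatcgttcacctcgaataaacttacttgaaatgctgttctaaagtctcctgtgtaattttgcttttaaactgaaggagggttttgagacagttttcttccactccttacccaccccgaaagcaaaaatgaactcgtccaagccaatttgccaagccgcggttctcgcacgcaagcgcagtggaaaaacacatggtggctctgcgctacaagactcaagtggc
Polr1b, chr2:129100746-129101045: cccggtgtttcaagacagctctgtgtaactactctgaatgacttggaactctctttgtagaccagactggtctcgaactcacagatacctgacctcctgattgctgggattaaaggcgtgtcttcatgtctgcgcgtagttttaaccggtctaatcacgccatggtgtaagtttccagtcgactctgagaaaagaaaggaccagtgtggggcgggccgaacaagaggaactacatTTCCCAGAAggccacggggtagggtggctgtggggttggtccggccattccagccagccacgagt
Pes1, chr11:3963725-3964024: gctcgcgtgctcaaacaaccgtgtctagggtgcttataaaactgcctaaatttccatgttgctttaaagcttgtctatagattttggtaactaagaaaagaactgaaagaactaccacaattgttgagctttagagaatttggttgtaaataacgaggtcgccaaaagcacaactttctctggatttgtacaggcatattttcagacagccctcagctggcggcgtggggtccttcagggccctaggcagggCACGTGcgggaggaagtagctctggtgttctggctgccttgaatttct

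The Polr1a window holds neither pattern. The Polr1b window holds 1 TTCNNNGAA, which starts 15 bases before that start, and the Pes1 window holds 1 CACGTG, which starts at base 3 of the transcribed part. A promoter window was found for 29 of the 34 members. CACGTG occurs in those of Mybbp1a, Nop2, Pes1, Utp18, Utp20 and Wdr43, which is 20.7% of the 29, against 8.09% of the 27025 genes with a window. TTCNNNGAA occurs in those of Nob1, Nop58, Polr1b and Utp15, which is 13.8% of the 29, against 9.55% of all. The 27025 genes, with 32851 windows, were not limited to the 10106 genes tested here, so these shares compare unlike sets. A match of these letters describes the window and does not show that a factor binds there.

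The members differed widely in level. Their mean over the 6 libraries lay between 0.909 FPKM for Wdr12 and 114.3 FPKM for Npm1, with a median of 10.7 FPKM against 10.9 FPKM over all genes tested. Of the 34, 18 exceeded 10 FPKM, and 5 (Polr1e, Utp20, Rrp12, Rrp1b and Wdr12) were below 2 FPKM. Added over the members, 517.4, 531.2 and 526.7 FPKM were found with GM-CSF against 558.6, 568.1 and 552.4 FPKM untreated. As deposited the sums do not overlap. As a share of each library's summed FPKM they were 0.1112%, 0.1146% and 0.1146% with GM-CSF against 0.1193%, 0.1140% and 0.1178% untreated, which overlap. The sums are weighted towards the most abundant members, of which Npm1, Ncl, Nhp2 and Pes1 had lower means with GM-CSF.

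**Figure D1:**
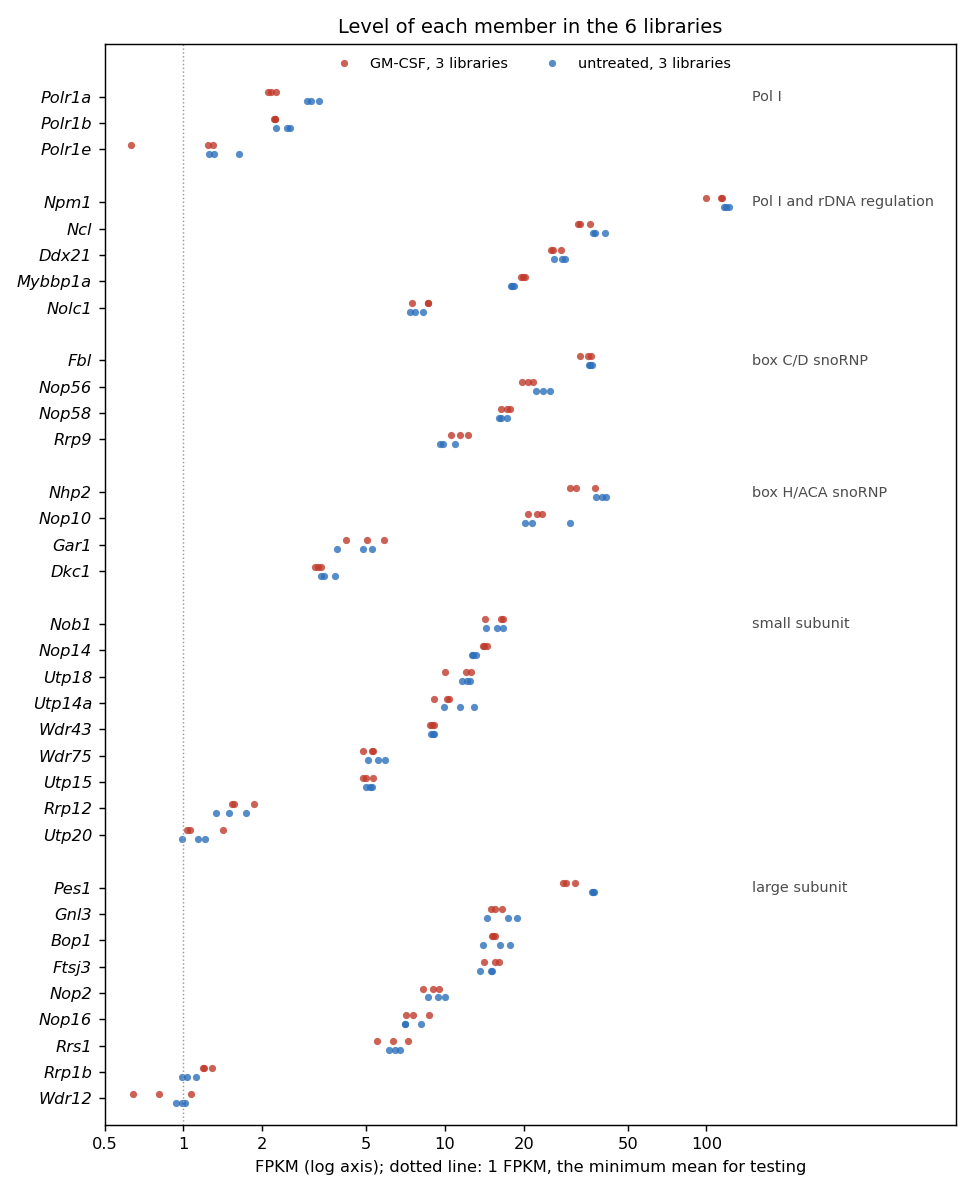
Level of each of the 34 members in FPKM (log axis), 1 point per library, for the 3 GM-CSF libraries (red) and the 3 untreated libraries (blue), grouped by role. Means span 0.909 FPKM (Wdr12) to 114.3 FPKM (Npm1), and for 23 members the points of the groups overlap.

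The members Polr1a, Polr1b and Polr1e encode subunits of RNA polymerase I, the enzyme that makes the ribosomal RNA precursor, and all were low. Polr1a (chromosome 6, 71909053 to 71979435 on GRCm38), the largest subunit and part of the catalytic site, had 2.17, 2.11 and 2.25 FPKM with GM-CSF against 3.296, 2.98 and 3.09 FPKM untreated. Every GM-CSF library was below every untreated one. The means were 2.18 ± 0.0726 FPKM with GM-CSF and 3.12 ± 0.162 FPKM untreated (SD, n = 3 each), a log2 fold change of -0.37 (SE 0.074, 95% interval -0.55 to -0.20, limma adjusted p = 0.0136). In bulk samples like these, fewer cells of a type and less RNA per cell cannot be told apart. Each value rested on between 11.3 and 18.9 kilobases of mapped sequence. The call ended without untreated replicate 1, the highest library (log2 fold change -0.34, limma adjusted p = 0.0506), and was made under the other 13 alternatives in which the gene was tested, with adjusted p from 0.00535.

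Polr1b (chromosome 2, 129100970 to 129128060), the second-largest subunit, had 2.22, 2.24 and 2.25 FPKM with GM-CSF against 2.26, 2.55 and 2.48 FPKM untreated. The groups do not overlap, but the gap is small and the gene was not called (log2 fold change -0.083, 95% interval -0.27 to 0.10, limma adjusted p = 0.502). Polr1e, which helps the polymerase to start and to elongate, had 1.302, 0.627 and 1.24 FPKM with GM-CSF against 1.31, 1.25 and 1.63 FPKM untreated. GM-CSF replicate 2 was the low library, and the 95% interval of the log2 difference, -0.62 to 0.15, was the only one among the 31 uncalled members that reached beyond 0.5 in either direction on the log2(FPKM + 1) scale. With a pseudocount of 0.1 its log2 fold change was -0.42 (-1.14 to 0.29, limma adjusted p = 0.380). The ratio of Polr1a to Polr1b was 0.976, 0.941 and 1.002 with GM-CSF against 1.46, 1.17 and 1.24 untreated, without overlap.

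Npm1, Ncl, Mybbp1a, Nolc1 and Ddx21 encode nucleolar proteins that act on ribosomal DNA chromatin, on the polymerase or on the new precursor. Of these 5 none was called at a limma adjusted p under 0.05, and Ncl and Mybbp1a had an unadjusted p under 0.05. Npm1 (nucleophosmin), a histone and ribosome chaperone that shuttles out of the nucleolus, was the most abundant member, with 100.05, 113.98 and 114.6 FPKM with GM-CSF against 121.8, 116.6 and 118.6 FPKM untreated. GM-CSF replicate 1 was the lowest library, and the groups do not overlap, though the log2 fold change of -0.12 was not called (limma adjusted p = 0.213). Mouse Npm1 has processed pseudogenes, so the assignment of its reads is uncertain. Of its 3 annotated transcripts the one of 1422 nt held between 69.7% and 78.99% of the gene's FPKM across libraries, and the one of 1288 nt between 21.01% and 28.7%.

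Ncl (nucleolin, chromosome 1, 86344719 to 86359455), which binds ribosomal RNA and opens nucleolar chromatin, had 32.4, 32.8 and 35.9 FPKM with GM-CSF against 37.4, 36.8 and 40.97 FPKM untreated. All GM-CSF libraries were lower than all untreated ones, with a log2 fold change of -0.18 (SE 0.062, 95% interval -0.33 to -0.034), which did not pass adjustment over all genes (limma adjusted p = 0.0856). The transcript model of this gene is 8257 nt long, and its level per length rests on that model.

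Mybbp1a (chromosome 11, 72441327 to 72451770), a nucleolar protein that binds MYB and takes part in precursor processing, had 20.2, 19.6 and 19.9 FPKM with GM-CSF against 17.8, 18.4 and 18.1 FPKM untreated. Here the GM-CSF libraries were the higher ones, without overlap and with the smallest standard error of the 33 tested members (log2 fold change 0.13, SE 0.042, limma adjusted p = 0.0805). It was called higher with median-of-ratios scaling (0.20, adjusted p = 0.0261), with quantile normalization (0.16, adjusted p = 0.0472) and among genes of at least 5 FPKM (0.13, adjusted p = 0.0492), and not under the other 12 alternatives, whose adjusted p reached 0.211. Nolc1, a chaperone of snoRNPs, averaged 8.23 ± 0.664 FPKM with GM-CSF and 7.75 ± 0.468 FPKM untreated, and Ddx21, an RNA helicase of the nucleolus, 26.3 ± 1.26 FPKM with GM-CSF and 27.6 ± 1.39 FPKM untreated (SD, n = 3 each). Both overlapped between the groups. The 4 annotated Nolc1 transcripts are nearly equal in length and their shares ran from near 0 to 85.2% between libraries, so their sum is given.

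**Figure D2:**
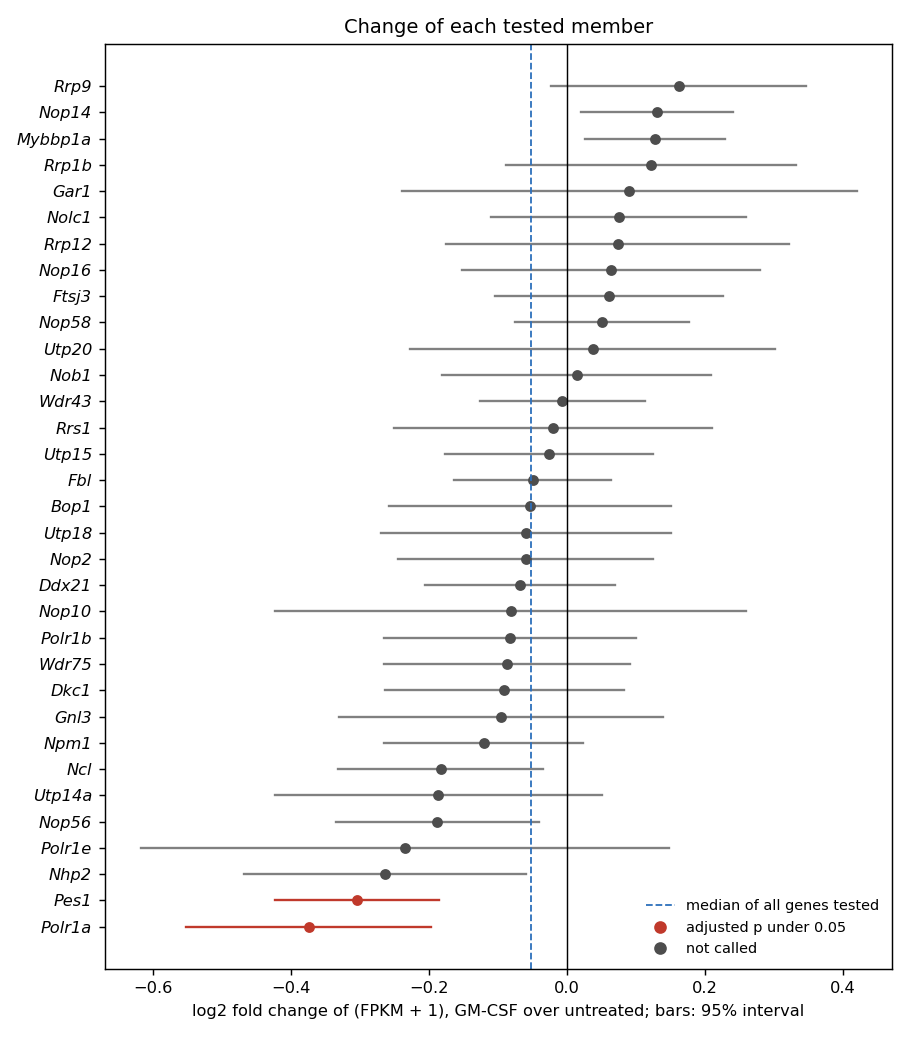
Log2 fold change of (FPKM + 1), GM-CSF over untreated, for the 33 tested members with 95% intervals. Red marks the 2 members called at an adjusted p under 0.05, and the dashed line is the median of the 10106 genes tested (-0.05); values run from -0.37 (Polr1a) to 0.16 (Rrp9), and the intervals of 26 members include 0.

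Box C/D snoRNPs place methyl groups on ribosomal RNA, and none of their 4 members was called in limma (1 had an unadjusted p under 0.05). The methyltransferase Fbl (fibrillarin) had 36.1, 32.9 and 35.3 FPKM with GM-CSF against 36.4, 35.6 and 35.9 FPKM untreated, and the groups overlapped (log2 fold change -0.050, 95% interval -0.16 to 0.064, limma adjusted p = 0.521). The scaffold protein Nop56 (chromosome 2, 130274367 to 130279313) had 20.7, 19.7 and 21.7 FPKM with GM-CSF against 22.3, 25.1 and 23.8 FPKM untreated, with no overlap (log2 fold change -0.19, SE 0.061, limma adjusted p = 0.0764). Its partner Nop58 had 16.4, 17.3 and 17.7 FPKM with GM-CSF against 16.3, 17.2 and 16.03 FPKM untreated, with overlap (0.051, SE 0.053, limma adjusted p = 0.557). Rrp9, the protein specific to the U3 snoRNP that guides the early cuts of the precursor, had the largest positive log2 fold change of the members. It had 11.4, 12.3 and 10.6 FPKM with GM-CSF against 9.79, 10.9 and 9.56 FPKM untreated, which overlap (0.16, 95% interval -0.023 to 0.35, limma adjusted p = 0.194).

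Box H/ACA snoRNPs turn uridines of ribosomal RNA into pseudouridine, and their proteins also stabilise telomerase RNA. The complex has 4 core proteins, whose mean levels spanned 10.7-fold, and none of the 4 was called in limma (1 had an unadjusted p under 0.05). Dkc1 (dyskerin, the pseudouridine synthase) averaged 3.26 ± 0.0826 FPKM with GM-CSF and 3.54 ± 0.234 FPKM untreated, and Gar1 5.04 ± 0.834 FPKM with GM-CSF and 4.67 ± 0.729 FPKM untreated (SD, n = 3 each). The small protein Nop10 was more abundant, at 22.2 ± 1.305 FPKM with GM-CSF and 23.9 ± 5.300 FPKM untreated (SD, n = 3 each), with untreated replicate 2 the high library. Nhp2, an RNA-binding core protein, had 31.7, 37.4 and 29.96 FPKM with GM-CSF against 41.2, 40.01 and 37.9 FPKM untreated. The groups do not overlap, with GM-CSF replicate 2 closest to the untreated libraries. Its log2 fold change was -0.26 (SE 0.085, limma adjusted p = 0.0746), and without GM-CSF replicate 2 it was called lower (-0.35, limma adjusted p = 0.0147). Dkc1 did not overlap between the groups either (limma adjusted p = 0.433), while Gar1 and Nop10 did.

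There were 9 members of the small subunit processome, the early particle in which the 18S part of the precursor is folded and cut, or of later 40S maturation. Of these 9, 0 rose and 0 fell in the limma test, 1 had an unadjusted p under 0.05, and their log2 fold changes lay between -0.19 and 0.13. Utp15, Wdr43 and Wdr75 belong to the subcomplex that binds the precursor first. Wdr43 had 8.73, 9.12 and 8.94 FPKM with GM-CSF against 9.05, 8.86 and 9.01 FPKM untreated, with the smallest change of the 33 tested members (log2 fold change -0.0070, 95% interval -0.13 to 0.11). Utp15 averaged 5.04 ± 0.229 FPKM with GM-CSF and 5.15 ± 0.129 FPKM untreated, and Wdr75 5.14 ± 0.251 FPKM with GM-CSF and 5.52 ± 0.416 FPKM untreated (SD, n = 3 each).

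Nop14, a processome protein needed for 18S maturation (chromosome 5, 34638536 to 34660148), was the one small subunit factor whose groups did not overlap. It had 14.5, 14.03 and 14.2 FPKM with GM-CSF against 13.2, 12.7 and 12.9 FPKM untreated (log2 fold change 0.13, SE 0.046, limma adjusted p = 0.0942), and it was called higher with median-of-ratios scaling only (0.20, limma adjusted p = 0.0333). Utp14a, which in yeast activates the helicase that releases U3 RNA, had 10.2, 10.4 and 9.06 FPKM with GM-CSF against 11.4, 12.9 and 9.96 FPKM untreated, which overlap (-0.19, 95% interval -0.42 to 0.051). Utp18, another processome protein, averaged 11.6 ± 1.36 FPKM with GM-CSF and 12.1 ± 0.439 FPKM untreated, and Nob1, the nuclease that makes the final cut of 18S RNA, 15.8 ± 1.29 FPKM with GM-CSF and 15.6 ± 1.199 FPKM untreated. Utp20, a very large scaffold protein, averaged 1.17 ± 0.214 FPKM with GM-CSF and 1.11 ± 0.113 FPKM untreated, and Rrp12, which in yeast takes part in subunit export, 1.65 ± 0.186 FPKM with GM-CSF and 1.52 ± 0.205 FPKM untreated (SD, n = 3 each). All of these overlapped between the groups.

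There were also 9 members of large subunit assembly. Of the 8 tested, 0 rose, Pes1 fell and 7 were not called by limma. Pes1 (chromosome 11, 3963975 to 3980004) joins Bop1 and Wdr12 in the PeBoW complex, which is required to process the 28S and 5.8S part of the precursor. It had 28.4, 29.1 and 31.5 FPKM with GM-CSF against 36.4, 37.1 and 36.8 FPKM untreated. The lowest untreated library was well above the highest GM-CSF one. The means were 29.6 ± 1.61 FPKM with GM-CSF and 36.8 ± 0.359 FPKM untreated (SD, n = 3 each), a log2 fold change of -0.30 (SE 0.050, 95% interval -0.42 to -0.19, limma adjusted p = 0.00655). The call held under all 15 alternatives run, with adjusted p between 0.00497 and 0.0300, and each value rested on between 73.5 and 112.2 kilobases of mapped sequence.

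The partners of Pes1 were not called. Bop1 had 15.1, 15.2 and 15.5 FPKM with GM-CSF against 16.3, 13.96 and 17.7 FPKM untreated, with the GM-CSF values inside the untreated range (log2 fold change -0.053, 95% interval -0.26 to 0.15). Wdr12 was the member left untested, since its mean stayed under 1 FPKM. It had 0.641, 0.804 and 1.07 FPKM with GM-CSF against 1.02, 0.939 and 0.984 FPKM untreated, which overlap, on between 1.66 and 3.02 kilobases of mapped sequence per library.

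Of the other large subunit factors, Rrp1b did not overlap between the groups and the rest did. Rrp1b, a nucleolar protein that binds chromatin, had 1.195, 1.19 and 1.29 FPKM with GM-CSF against 1.03, 0.987 and 1.11 FPKM untreated (log2 fold change 0.12, SE 0.088, limma adjusted p = 0.390). Nop2, which methylates 28S RNA, averaged 8.91 ± 0.607 FPKM with GM-CSF and 9.33 ± 0.721 FPKM untreated, and Gnl3 (nucleostemin), a nucleolar GTPase known from stem cells, 15.7 ± 0.722 FPKM with GM-CSF and 16.9 ± 2.27 FPKM untreated (SD, n = 3 each). Rrs1, which brings in the 5S particle, averaged 6.35 ± 0.861 FPKM with GM-CSF and 6.42 ± 0.299 FPKM untreated. Ftsj3, a methyltransferase, averaged 15.2 ± 1.01 FPKM with GM-CSF and 14.6 ± 0.849 FPKM untreated, and Nop16 7.77 ± 0.8004 FPKM with GM-CSF and 7.39 ± 0.616 FPKM untreated (SD, n = 3 each).

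**Figure D3:**
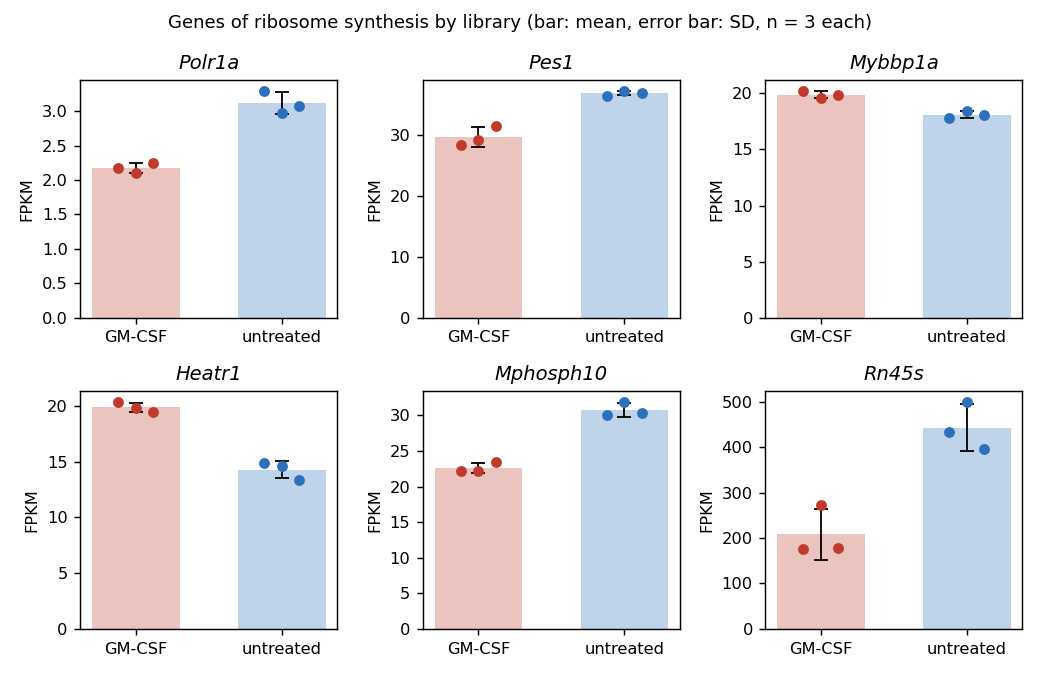
FPKM in each library (points) with the group mean (bar) and SD (error bar, n = 3) for Polr1a, Pes1, Mybbp1a, Heatr1, Mphosph10 and the ribosomal RNA precursor Rn45s, GM-CSF left and untreated right, each axis starting at 0. The groups do not overlap in any of the 6 panels: Polr1a, Pes1, Mphosph10 and Rn45s are lower with GM-CSF, and Heatr1 and Mybbp1a higher, Mybbp1a without passing the adjusted test.

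Over the 33 tested members the median log2 fold change was -0.05, as it was over all genes tested (-0.05). The quartiles of the members were -0.10 and 0.06, against -0.19 and 0.06 for all genes. All 33 stayed within 0.5 of 0 on the log2(FPKM + 1) scale, as did 89.7% of all genes. That scale narrows the change of low genes: in the plain ratio of mean FPKM, Polr1a had a log2 value of -0.52. Groups did not overlap for 11 members, which is 33.3% of them against 39.2% of all genes. With GM-CSF 3 of them were higher, where 13.2% of all genes were, and 8 were lower, where 26.0% of all genes were. Of the 31 members not called, 30 had a 95% interval inside -0.5 to 0.5 on this scale, and 27 with a pseudocount of 0.1, where those of Polr1e, Utp20, Rrp12 and Rrp1b, all below 2 FPKM, reached beyond it.

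Ratios between partners of a complex do not depend on the scale of a library. For 5 complexes with several members, all 18 pairs were compared, and in 3 of them the groups did not overlap. These were Polr1a to Polr1b, given above, Nop56 to Nop58 and Pes1 to Bop1. Polr1a and Pes1 are the members called above, so their ratios rest on the same values. The share of pairs without overlap among other genes was not measured, so the count is a description only. The Nop56 to Nop58 ratio was 1.26, 1.14 and 1.22 with GM-CSF against 1.37, 1.46 and 1.48 untreated, a log2 difference of -0.25. The Pes1 to Bop1 ratio was 1.87, 1.91 and 2.03 with GM-CSF against 2.24, 2.66 and 2.08 untreated, a log2 difference of -0.26. With 3 libraries against 3 the exact two-sided permutation test cannot go below p = 0.1, which each of the 3 pairs reached, and after Benjamini-Hochberg adjustment over the 18 pairs their value was 0.6. The remaining 15 pairs overlapped, among them all 6 pairs of the H/ACA core and all 3 of Utp15, Wdr43 and Wdr75.

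**Figure D4:**
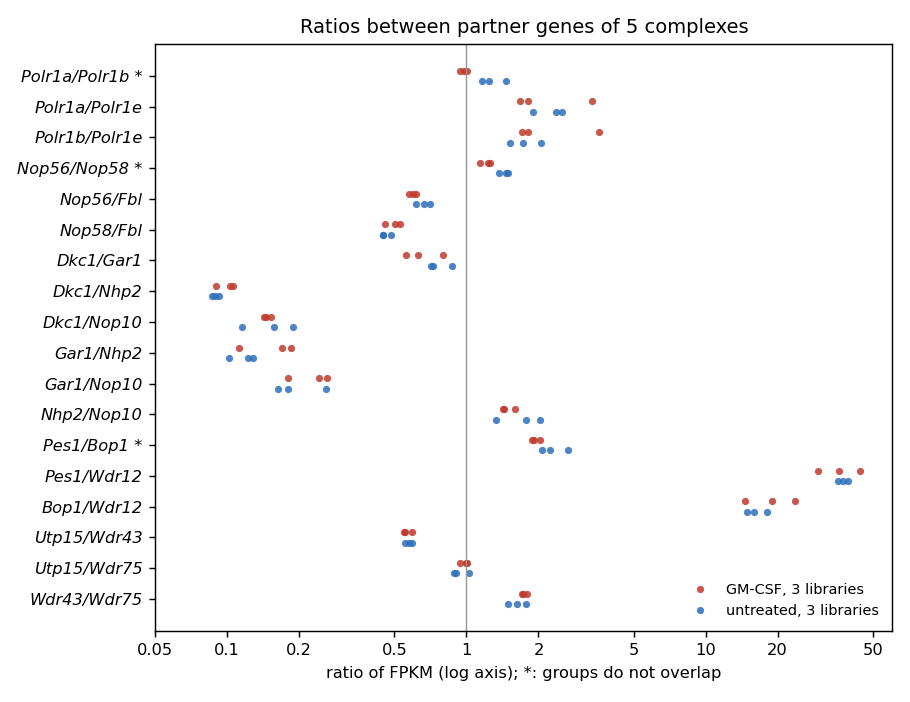
Ratio of FPKM between partner genes of 5 complexes (log axis), 1 point per library, GM-CSF red and untreated blue. An asterisk marks the 3 pairs of 18 whose groups do not overlap, and in each of them (Polr1a/Polr1b, Nop56/Nop58 and Pes1/Bop1) the GM-CSF libraries have the lower ratio.

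Of 124 other tested genes of the pathway, in 5 lists, 4 rose, 5 fell and 115 were not called in limma. That is 7.26% called, against 21.9% of all genes, with a median log2 fold change of -0.02. None of the 12 further polymerase I genes was called at a limma adjusted p under 0.05, and 3 had an unadjusted p under 0.05. The most abundant of them, Polr1d, a subunit shared with RNA polymerase III, averaged 89.7 FPKM with GM-CSF and 87.04 FPKM untreated, and Znrd1, a small subunit of the enzyme, 49.1 FPKM with GM-CSF and 50.2 FPKM untreated. None of the 45 large subunit factors was called in limma either, and 3 had an unadjusted p under 0.05. Eif6, the factor that keeps subunits apart, averaged 71.8 FPKM with GM-CSF and 73.4 FPKM untreated, and Gltscr2, a nucleolar assembly factor, 68.8 FPKM with GM-CSF and 80.01 FPKM untreated (log2 fold change -0.22, limma adjusted p = 0.0505). Gltscr2 was called lower among genes of at least 5 FPKM (adjusted p = 0.0458) and with quantile normalization (adjusted p = 0.0499).

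Of 44 small subunit factors 2 rose and 4 fell in limma, and 8 had an unadjusted p under 0.05. Over all genes tested, 21.9% were called and 34.4% had an unadjusted p under 0.05. Heatr1 (chromosome 13, 12395375 to 12438893), a protein of the same early subcomplex as Wdr43, had 20.3, 19.8 and 19.5 FPKM with GM-CSF against 14.9, 14.6 and 13.4 FPKM untreated (log2 fold change 0.45, SE 0.055, limma adjusted p = 0.00212). Mphosph10 (chromosome 7, 64376541 to 64392236), a component of the U3 particle, had 22.2, 22.2 and 23.5 FPKM with GM-CSF against 30.1, 31.8 and 30.3 FPKM untreated (-0.43, SE 0.047, limma adjusted p = 0.00132). Neither gene overlapped between the groups, and 1 rose while the other fell. Krr1, another processome protein, had 30.5, 29.9 and 27.4 FPKM with GM-CSF against 37.4, 38.9 and 35.8 FPKM untreated (-0.34, SE 0.057, limma adjusted p = 0.00720). The calls of Heatr1, Mphosph10 and Krr1 held under all 15 alternatives run. The other 3 calls, of genes named after their values were seen, were each lost under some alternatives. Pno1 rose (0.29, limma adjusted p = 0.0257), a call lost under 5 of 15 alternatives (adjusted p up to 0.0783). These were without GM-CSF replicate 2 or 3 or untreated replicate 2 or 3, and with the replicate number in the fit. Imp3 fell (-0.30, limma adjusted p = 0.0183), lost under 5 (up to 0.0680). These were without GM-CSF replicate 3 or any 1 untreated replicate, and with median-of-ratios scaling. Utp3 fell (-0.19, limma adjusted p = 0.0397), lost under 12 (up to 0.221). Among the 12 were the fits without any 1 GM-CSF replicate or untreated replicate 1 or 2. With all 6 libraries the Utp3 call was lost under each other scaling, without the 1 FPKM filter and with the most abundant transcript. The same held without the variance trend of limma and with the replicate number in the fit.

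Among 9 further snoRNP genes Znhit3, a box C/D assembly factor, rose (log2 fold change 0.78, SE 0.18, limma adjusted p = 0.0227) and averaged 8.99 ± 1.09 FPKM with GM-CSF and 4.896 ± 1.31 FPKM untreated (SD, n = 3 each). Its call was lost under 4 of 15 alternatives (adjusted p up to 0.0709). These were without GM-CSF replicate 1 or 3, without the 1 FPKM filter and with the replicate number in the fit. Of 14 genes of the exosome, the complex that trims the precursor, Exosc10, a nuclease, rose and Exosc5, a core subunit, fell. Exosc10 averaged 28.7 FPKM with GM-CSF and 23.9 FPKM untreated (0.25, limma adjusted p = 0.0117), and Exosc5 10.7 FPKM with GM-CSF and 15.9 FPKM untreated (-0.54, limma adjusted p = 0.0265). The Exosc5 call was lost under 7 of 15 alternatives (adjusted p up to 0.0787). These were without GM-CSF replicate 2 or 3, any 1 untreated replicate or the 1 FPKM filter, and with the replicate number in the fit.

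MYC pairs with MAX to activate genes of ribosome synthesis, and the MXD proteins, MXI1 and MNT compete for MAX and repress. Of 8 tested genes of this network 2 rose and 3 fell in limma. Mxd1 had 52.3, 50.8 and 48.8 FPKM with GM-CSF against 28.02, 30.6 and 32.7 FPKM untreated (log2 fold change 0.72, SE 0.064, limma adjusted p = 0.000548). Mxi1 had 16.5, 17.4 and 17.9 FPKM with GM-CSF against 27.99, 28.6 and 29.1 FPKM untreated (-0.70, SE 0.047, limma adjusted p = 0.000167), so Mxd1 rose and Mxi1 fell, each without overlap. Max and Mnt, named after their values were seen, fell as well. Max had 59.1, 61.1 and 60.04 FPKM with GM-CSF against 71.6, 85.5 and 77.9 FPKM untreated (-0.37, SE 0.066, limma adjusted p = 0.00901), a call lost under 1 of 15 alternatives, with the most abundant transcript in place of the sum (adjusted p = 0.347). Mnt had 27.3, 25.7 and 23.98 FPKM with GM-CSF against 31.9, 31.8 and 29.9 FPKM untreated (-0.27, SE 0.059, limma adjusted p = 0.0190). The Mnt call was lost under 4 of 15 alternatives (adjusted p up to 0.0909). These were without GM-CSF replicate 2 or untreated replicate 1 or 2, and with median-of-ratios scaling. Mxd3 rose by a smaller amount (0.40, limma adjusted p = 0.0499), a call lost under 9 of 15 alternatives (adjusted p up to 0.143). Among the 9 were the fits without GM-CSF replicate 1 or 2 or untreated replicate 1 or 2. With all 6 libraries the Mxd3 call was lost without the 1 FPKM filter, after rescaling to one sum and with the most abundant transcript. The same held without the variance trend of limma and with the replicate number in the fit. Myc itself had 0.977, 1.31 and 0.7005 FPKM with GM-CSF against 0.943, 1.48 and 0.7698 FPKM untreated, which overlap (limma adjusted p = 0.893).

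The ribosomal RNA precursor is listed as Rn45s with a transcript of 5833 nt. Values of this entry do not tell the precursor from RNA cut out of it. Rn45s had 175.3, 273.4 and 177.3 FPKM with GM-CSF against 433.6, 498.5 and 396.5 FPKM untreated. The highest GM-CSF library, replicate 2, which is also the deepest, stayed below all untreated ones. The log2 fold change was -1.11 (SE 0.18, limma adjusted p = 0.00691), and it was called under all 15 alternatives run. The precursor comes from many repeated gene copies and is not regularly polyadenylated, while these libraries were made from polyadenylated RNA. Rpph1, the RNA of RNase P and likewise not polyadenylated, had 11.7, 17.04 and 6.704 FPKM with GM-CSF against 25.6, 23.5 and 13.9 FPKM untreated (-0.82, limma adjusted p = 0.151). Rmrp, the RNA of a nuclease that cuts the precursor, had 8.61, 17.4 and 2.200 FPKM with GM-CSF against 14.9, 25.9 and 5.903 FPKM untreated (-0.80, limma adjusted p = 0.501). Both overlapped between the groups, with lower means with GM-CSF. Terc, the telomerase RNA that the H/ACA proteins bind, was listed at 0 in 4 of the 6 libraries. The part of the RNA selection in the difference of Rn45s was not tested.

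Of the markers of other cells, those of B, plasma and T cells mostly moved with the groups, and the other lists did so in part or not at all. In limma the 6 B and plasma cell markers tested were all lower with GM-CSF (summed level 17.01 to 18.4 FPKM with GM-CSF, 32.3 to 40.1 FPKM untreated), as were 4 of 5 T cell markers (15.8 to 18.6 FPKM with GM-CSF, 28.7 to 30.1 FPKM untreated). Of 8 epithelial markers 1 rose and 3 fell (276.7 to 290.3 FPKM with GM-CSF, 241.4 to 271.9 FPKM untreated). Those that fell were Krt8 (log2 fold change -0.68, limma adjusted p = 0.0313), Krt18 (-0.47, 0.00200) and Krt19 (-0.81, 0.00757). Of those not called, Krt20 (-0.53), Cdh1 (-0.36) and Fabp2 (-0.41) had negative log2 fold changes and Epcam (0.27) a positive one. Olfm4, which makes up most of the epithelial sum, was the one that rose, so the sum does not follow the other epithelial markers. The Olfm4 call was lost without GM-CSF replicate 1 or 3 or untreated replicate 3 (adjusted p up to 0.0722). Of 5 tested macrophage and dendritic cell markers 2 fell. The list summed to 949.7 to 1024 FPKM with GM-CSF and 902.4 to 969.6 FPKM untreated, mostly Itgax and Emr1, which were not called. Itgax averaged 440.2 FPKM and Emr1 397.1 FPKM over the 6 libraries, above the eosinophil marker Ccr3 at 270.1 FPKM. Whether Itgax and Emr1 stem from the eosinophils or from other cells was not tested, so the sum is no measure of other cells. A further 5 genes of that list, C1qa, C1qb, Mertk, Cx3cr1 and Flt3, averaged under 1 FPKM. Of 3 tested neutrophil markers S100a8 and Retnlg fell and S100a9 was not called. The list summed to 1039 to 1049 FPKM with GM-CSF and 1342 to 1457 FPKM untreated, mostly Retnlg. Over the 6 libraries Retnlg averaged 1171 FPKM, S100a8 11.8 FPKM and S100a9 42.5 FPKM, while Elane and Camp were at 0 in all. The cells that Retnlg stems from were not tested either. Of 3 mast cell markers Kit fell (7.99 to 11.1 FPKM with GM-CSF, 8.17 to 20.4 FPKM untreated), and Tpsb2 was at 0 in all 6 libraries. Of 7 eosinophil markers 1 rose and 3 fell (624.3 to 717.3 FPKM with GM-CSF, 955.5 to 1099.9 FPKM untreated), among them Alox15 (-1.54, limma adjusted p = 5.08e-05). Of 12 genes of dividing cells 8 averaged under 1 FPKM, and none of the 4 tested was called in limma, with 2 at an unadjusted p under 0.05 (88.8 to 101.3 FPKM with GM-CSF, 99.4 to 108.5 FPKM untreated, mostly Pcna). The part of these other cells in the values of Polr1a, Pes1 and the other genes was not tested.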

How the data were processed

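For each library the authors deposited FPKM, coverage (a signal of read depth) and length for 30374 RefSeq transcripts, per the file headers. The tools named in the submitters' processing notes are Cufflinks, TopHat, TopHat2 and bcl2fastq 1.8.4, with the build mm10 (GRCm38), in no stated order. Use of strand and treatment of reads shared by gene copies: not given in the sources used here. Coverage over FPKM was constant within a library and gave its mapped gigabases.

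FPKM were summed per symbol (42 transcripts for the 34 members). Symbols averaging 1 FPKM or more were tested with limma 3.58.1 in R 4.3.3 (trend, two-sided, Benjamini-Hochberg over 10106 genes) on log2(FPKM + 1), which understates changes of low genes. The fit was tested on simulated data. Intervals are 95%, unadjusted. Partner ratios used exact permutation tests (scipy 1.17.1). Gene positions are RefSeq's on GRCm38.p6.

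Members and lists were chosen with earlier results of these data known. All members are named, and from the pathway and MYC lists up to 3 called genes with the largest change, or the 2 most abundant where none was called. Of the markers, Siglec5, Ccr3, Gata1, Il5ra, Epx, Prg2, Emr1, S100a8, S100a9 and those under 1 FPKM were named after their values were seen. The same holds for Krt8, Krt18, Krt19, Krt20, Cdh1, Fabp2 and Epcam. So were Myc, Max, Mnt, Pno1, Imp3 and Utp3. Alternatives varied the pseudocount, filter, scaling, transcript choice, variance trend, replicate block and single libraries.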

Additional observations from a re-analysis of the deposited data

How the results depend on the processing

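With all 6 libraries and no replicate block, members called higher numbered 0 and members called lower 2, except for 1 higher and 1 lower among genes of at least 5 FPKM, where Polr1a was not tested, 2 higher with median-of-ratios scaling and 1 higher with quantile normalization. The members' median log2 fold change, -0.05 as deposited, was 0.016 with median-of-ratios scaling, -0.0021 with quantile normalization and -0.0085 after rescaling to one sum, where 913 genes were lower over all genes. Leaving out 1 library at a time gave 1 to 3 members lower, 0 higher, a members' median of -0.052 to -0.040, 888 to 1117 genes lower over all genes (lowest without untreated replicate 2) and 1515 to 1795 called in all, and 4 to 6 higher and 6 to 8 lower genes in the pathway, MYC and RNA lists (6 and 9 with all libraries). The labels do not say if the replicate numbers pair the libraries. Deviations of same-numbered libraries correlated at -0.032, 0.054 and -0.017. These are correlations over all tested genes and cannot show if smaller sets of genes follow the numbers. A principal component analysis, which sorts libraries along axes of largest spread, gave a second axis with 19.6% of the variance. On it the replicate 2 libraries lay lowest, at -26.96 with GM-CSF and -22.04 untreated. The other libraries lay between -2.19 and 19.74. What sets these libraries apart was not tested. The fit with the replicate block called 3 members lower (Ncl added, adjusted p = 0.0387) and 3 genes of these lists higher and 10 lower. It ended the calls of Znhit3, Mxd3, Pno1, Exosc5 and Utp3. Among the genes that it newly called lower were Rmrp and Rpph1 (limma adjusted p = 0.0187 and 0.0232). For both RNAs each GM-CSF library was below the untreated one of the same number.

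Genes that were not called changed sign as follows, in log2 fold change, and the cause was not tested. With median-of-ratios scaling the values were Ddx21 0.0034, Fbl 0.022, Wdr43 0.059, Utp15 0.036, Utp18 0.0090, Bop1 0.016, Nop2 0.0065, Rrs1 0.044, Znrd1 0.046, Eif6 0.041 and Itgax 0.012. With quantile normalization they were Wdr43 0.059, Utp15 0.043, Nop2 0.0037, Rrs1 0.041 and Znrd1 0.0025, and after rescaling to one sum Wdr43 0.036, Utp15 0.014, Rrs1 0.021, Znrd1 0.020 and Eif6 0.016. With the most abundant transcript alone, Nolc1 -0.37 was found, which rests on unstable transcript shares. Leaving out 1 library gave ranges across 0 for these genes: Gar1 -0.017 to 0.19, Wdr43 -0.021 to 0.0075, Utp18 -0.12 to 0.032, Utp20 -0.043 to 0.081, Nob1 -0.043 to 0.079, Rrs1 -0.11 to 0.064, Polr1d -0.0040 to 0.10, Nop16 -0.0089 to 0.12, Znrd1 -0.11 to 0.060, Nop10 -0.18 to 0.086, Bop1 -0.14 to 0.020. Wdr12 and Polr1e rested on the least mapped sequence, between 1.66 and 3.02 kilobases and between 2.45 and 4.398 kilobases per library.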
